A study of Sus scrofa with 11 samples.

Results

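KLF2, KLF4, NOS3, ASS1 and THBD are endothelial genes known to respond to blood flow, and they were followed through porcine coronary arteries kept with and without flow. The genes were chosen by symbol, and 4 of the 5 could be matched to an Ensembl gene of the count tables, out of 25880 genes in all. All 4 passed the filter on low counts that left 15348 genes for testing. The gene identifier that pairs with THBD, the thrombin receptor thrombomodulin, was not among the genes used here, so THBD is not analysed here.

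KLF2 and KLF4 are zinc finger transcription factors that steady laminar flow switches on in endothelial cells, through the kinases MAP2K5 and MAPK7 and the MEF2 factors. Among the genes they raise are NOS3, the endothelial nitric oxide synthase, and thrombomodulin, while they hold back adhesion molecules and other inflammatory genes. ASS1 makes argininosuccinate, the step by which citrulline is turned back into arginine, the substrate of NOS3. Both factors are also made outside the endothelium, KLF4 in smooth muscle cells and KLF2 in leukocytes.

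RNA was sequenced from whole coronary arteries of pigs, to describe an ex vivo vessel culture for stent testing. Cultured vessels were stented and held static in a bioreactor (Stent/Flow-, 2 libraries), unstented under low flow (Flow+, 2 libraries), unstented under the stronger flow (Flow++, 2 libraries) or stented under the stronger flow (Stent/Flow++, 3 libraries), and arteries that were not cultured gave 2 native libraries. No group was static without a stent, so static culture and the stent cannot be told apart in Stent/Flow-. The sources used here give no strain, age or flow rate. Library names carry a d suffix in 3 cases, 3 on both Stent/Flow- libraries and 7 on Stent/Flow++ replicate 3, and its meaning is not stated; if it counts days of culture, culture time and flow cannot be told apart in Stent/Flow-. Nothing ties each library to its own animal, and native replicate 2 and Stent/Flow++ replicate 1 share the number 25 in their names. The p-values therefore reflect the scatter among these libraries alone, part or all of which may be technical.

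Levels are given as CPM, the counts of a gene divided by the scaled size of its library, and changes are log2 fold changes ± standard error (SE). Adjusted p-values come from edgeR's quasi-likelihood F-test, with the Benjamini-Hochberg method applied to all 15348 genes, and a gene is called changed when its adjusted p is under 0.05. Libraries held 13496636 to 26785124 counts, so that 3 counts in a library correspond to 0.105 to 0.215 CPM. A level of one gene is not set against that of another here, because transcript lengths were not used.

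The tissue label was checked against endothelial genes, since the 4 genes are read in whole vessel walls. Of 22 listed endothelial genes 18 were measured, and none of them was at 0 in any library. Their summed level ranged over 1143 to 2714 CPM in Stent/Flow-, 1274 to 1738 CPM in Flow+, 1504 to 1587 CPM in Flow++, 973 to 1371 CPM in Stent/Flow++ and 1681 to 1960 CPM in native libraries. The adhesion molecule PECAM1 had 513 and 218 CPM in Stent/Flow-, 249 and 347 CPM in Flow+, 279.1 and 195 CPM in Flow++, 103, 181 and 118 CPM in Stent/Flow++, and 388 and 489 CPM in native libraries. The lowest sum was thus in a stented vessel under flow, the Stent/Flow++ range overlapped those of Stent/Flow- and Flow+, and the 2 Stent/Flow- libraries stood far apart from each other. Of the 18 genes, 1 was called lower than native in Stent/Flow-, 3 in Flow+, 3 in Flow++ and 10 in Stent/Flow++ (median log2 fold change -0.24, -0.58, -0.70 and -1.33), and 1 was called higher in each. The share of all genes called lower was 7.19%, 7.38%, 8.86% and 13.9% in the same order. In such bulk samples fewer cells of a type and less RNA per cell cannot be told apart.

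Other cell types moved as well. The summed level of 12 smooth muscle genes was 1212 to 9838 CPM in the cultured libraries, against 38426 and 49904 CPM in native ones, and 9 of them were called lower in Stent/Flow-, 3 in Flow+, 8 in Flow++ and 8 in Stent/Flow++. That of 16 macrophage genes was 1485 to 3231 CPM in Stent/Flow-, 1487 to 1586 CPM in Flow+, 491 to 880 CPM in Flow++, 528 to 1028 CPM in Stent/Flow++, and 573 to 582 CPM in native libraries, with the scavenger receptor MARCO at 0 in native replicate 2. Lymphocytes, which make KLF2, were represented by 8 genes with summed levels of 8.82 to 25.015 CPM in Stent/Flow-, 10.02 to 11.2 CPM in Flow+, 6.92 to 10.8 CPM in Flow++, 5.16 to 9.83 CPM in Stent/Flow++ and 9.95 to 15.4 CPM in native libraries. Of these, 1 was called higher in Stent/Flow-, and 3, 3 and 5 were called lower in Flow+, Flow++ and Stent/Flow++, the T cell gene CD3E being at 0 in all 7 libraries of those groups. The summed level of 8 adipocyte genes was 2717 and 244.9 CPM in Stent/Flow-, 180.2 to 260.7 CPM in Flow+, 68.8 to 193 CPM in Flow++, 38.1 to 99.01 CPM in Stent/Flow++ and 1775 to 2796 CPM in native libraries, with 0, 1, 2 and 5 called lower than native in the 4 cultures and 6 lower in Stent/Flow++ than in Stent/Flow-. ADIPOQ had 764.88 and 0.85 CPM in Stent/Flow- replicates 1 and 2, and PCK1 was called between the stented groups although its values overlapped. Beside the counts above, 7.19%, 7.38%, 8.86% and 13.9% of all genes were called lower than native in Stent/Flow-, Flow+, Flow++ and Stent/Flow++. In Stent/Flow-, 5.54% were called higher, and 1.67% were lower in Stent/Flow++ than in Stent/Flow-. For 5 heart muscle genes the summed level was 1232.9 CPM in native replicate 1 and 107.68 CPM in native replicate 2. In cultures it was 18.69 to 53.71 CPM in Stent/Flow-, 42.26 to 51.26 CPM in Flow+, 17.61 to 72.01 CPM in Flow++ and 8.99 to 51.02 CPM in Stent/Flow++. In native replicates 1 and 2, TNNT2 had 403.46 and 1.32 CPM and MYH6 539.49 and 1.67 CPM. The 2 libraries behind every comparison with native thus differed in heart muscle transcripts. The part of these cell types in the changes of KLF2 and KLF4 was not tested.

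The first question was how each kind of culture differed from the native artery. KLF2 and KLF4 fell in all 4 cultured groups, KLF2 to 17.7% to 25.5% and KLF4 to 8.72% to 13.5% of the native mean. ASS1 was called lower in both stented groups, and NOS3 was called in none of the 4 comparisons. Of the 4 genes, 3 were called lower in Stent/Flow-, 3 in Stent/Flow++, 2 in Flow++ and 2 in Flow+, with a median log2 fold change of -2.69, -2.52, -2.10 and -2.11. Over all genes tested, 12.7% were called in either direction in Stent/Flow-, 24.3% in Stent/Flow++, 14.8% in Flow++ and 12.4% in Flow+, and the share called lower was 7.19%, 13.9%, 8.86% and 7.38%, and higher 5.54%, 10.4%, 5.94% and 5.03%, in the same order. The median over all genes was 0.02, 0.06, 0.02 and 0.00. All 4 comparisons use the same native libraries, so their values stand side by side and do not support each other.

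**Figure D1:**
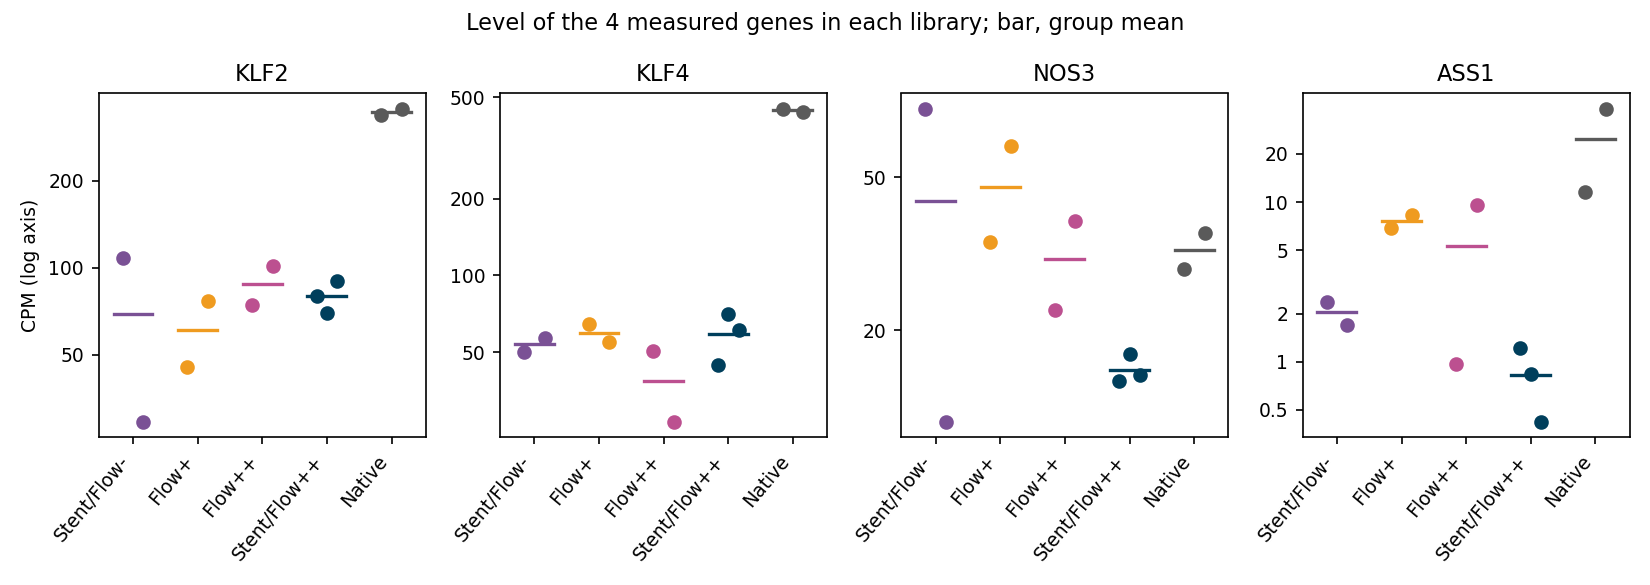
Level of KLF2, KLF4, NOS3 and ASS1 in CPM (log axis, a separate scale for each gene) in the 11 libraries, with a point per library and a bar at the group mean. KLF2 and KLF4 sit far above every cultured library in the native arteries, NOS3 overlaps between most groups, and ASS1 is lowest in Stent/Flow++.

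KLF2 (ENSSSCG00000038911, chromosome 2, 61270733 to 61273037 in RefSeq's annotation of Sscrofa11.1) was read at 108.4 and 29.3 CPM in Stent/Flow-, 45.5 and 76.6 CPM in Flow+, 74.5 and 101 CPM in Flow++, 79.9, 69.6 and 89.6 CPM in Stent/Flow++, and 337.5 and 354 CPM in native libraries. Every cultured library lay below both native ones, which for a gene picked from the whole table was the case in 29.8% of genes for Stent/Flow-, 27.6% for Stent/Flow++, 31.5% for Flow++ and 34.4% for Flow+. The group means were 68.9 ± 55.9 CPM in Stent/Flow-, 61.0 ± 21.996 CPM in Flow+, 88.0 ± 19.0 CPM in Flow++ and 79.7 ± 9.98 CPM in Stent/Flow++, against 346 ± 11.4 CPM in native libraries (SD, n = 3 in Stent/Flow++ and 2 elsewhere).

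All 4 falls of KLF2 passed the test. Its log2 fold change was -2.33 ± 0.51 in Stent/Flow- (edgeR adjusted p = 0.0157), -2.50 ± 0.52 in Flow+ (adjusted p = 0.0118), -1.97 ± 0.51 in Flow++ (adjusted p = 0.0249) and -2.12 ± 0.44 in Stent/Flow++ (adjusted p = 0.00656). The Stent/Flow++ call held without any one of the 11 libraries (edgeR adjusted p up to 0.0413). The other calls were lost in fits that left 1 library in a group. In such fits, fewer libraries and the weight of a single library cannot be told apart. The call in Stent/Flow- was lost without native replicate 1 or 2. Those in Flow+ and Flow++ were lost without native replicate 1 or 2 and without replicate 1 or 2 of the culture itself. The direction of KLF2 was lower in each of these fits. In the authors' deposited tables of changed genes, KLF2 was listed for Flow+ and Flow++, with log2 fold changes of -2.50 and -1.97, and for neither stented culture.

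KLF4 (ENSSSCG00000005437, chromosome 1, 248604817 to 248609574) had 50.3 and 57.1 CPM in Stent/Flow-, 64.5 and 54.8 CPM in Flow+, 50.6 and 26.7 CPM in Flow++, 44.4, 70.5 and 61.3 CPM in Stent/Flow++, and 449 and 438 CPM in native libraries. Among cultured groups Flow++ lay below Flow+ and the other pairs overlapped, and none came near the native libraries. Means were 53.7 ± 4.80 CPM in Stent/Flow-, 59.7 ± 6.90 CPM in Flow+, 38.7 ± 16.9 CPM in Flow++ and 58.8 ± 13.2 CPM in Stent/Flow++, against 443 ± 7.70 CPM in native libraries (SD, n as above). KLF4 was therefore 8.26-fold, 7.43-fold, 11.5-fold and 7.55-fold lower than in native vessels.

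All 4 falls of KLF4 passed the test. Its log2 fold change was -3.05 ± 0.36 in Stent/Flow- (edgeR adjusted p = 0.000866), -2.89 ± 0.35 in Flow+ (adjusted p = 0.000966), -3.52 ± 0.37 in Flow++ (adjusted p = 0.000581) and -2.92 ± 0.31 in Stent/Flow++ (adjusted p = 0.000171). By p-value it ranked 62, 84, 27 and 105 among the 15348 genes. Leaving out each library in turn kept all 4 calls, with an edgeR adjusted p of at most 0.00893, 0.0238, 0.00625 and 0.00244. In the authors' deposited tables of changed genes, KLF4 was listed for all 4 cultures, with log2 fold changes of -3.05, -2.89, -3.51 and -2.92.

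**Figure D2:**
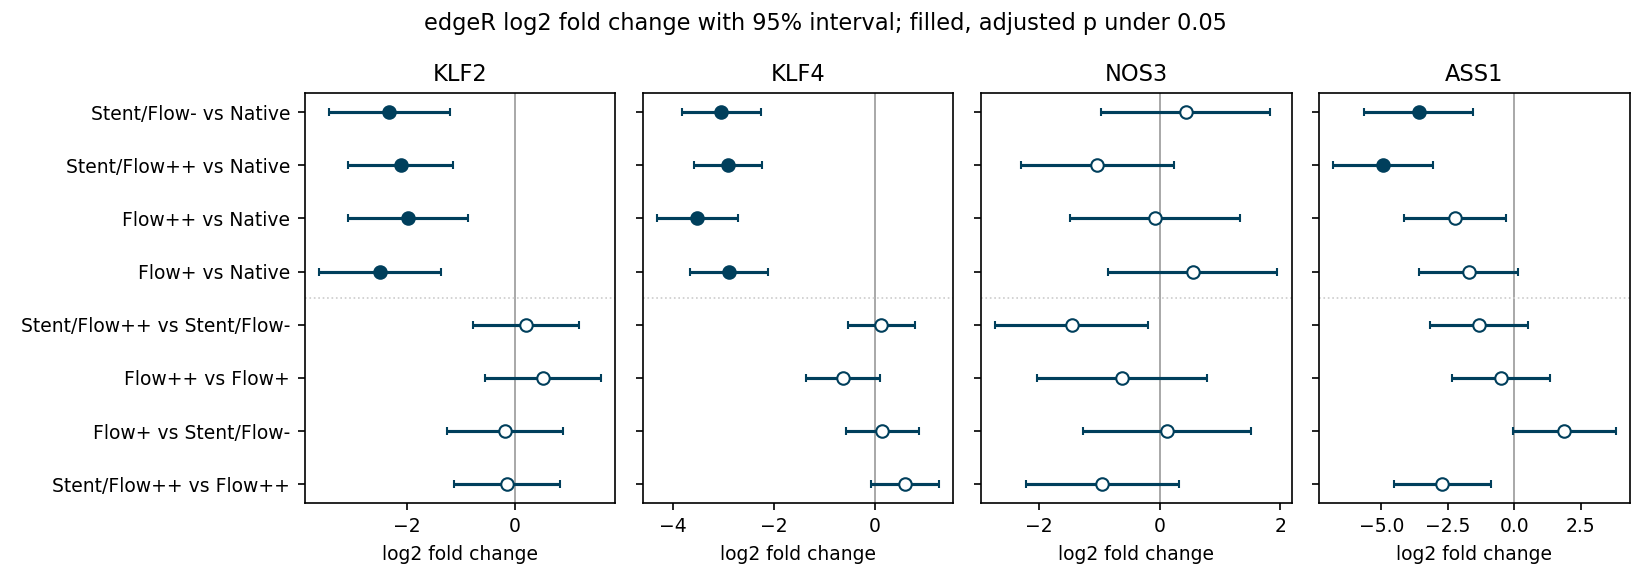
log2 fold change of each gene in 8 comparisons, with the 95% interval of edgeR's fit, filled where the adjusted p is under 0.05. The 4 comparisons with native arteries, above the dotted line, hold all 10 filled points, and no interval for NOS3 against native leaves 0 out. Unfilled points whose interval leaves 0 out are ASS1 in Flow++ against native and in Stent/Flow++ against Flow++, and NOS3 in Stent/Flow++ against Stent/Flow-.

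NOS3 (ENSSSCG00000016450, chromosome 18, 6209218 to 6228912), which KLF2 and KLF4 are known to raise, showed no such step to the native artery. It had 75.2 and 11.6 CPM in Stent/Flow-, 34.0 and 60.4 CPM in Flow+, 22.6 and 38.5 CPM in Flow++, 14.7, 17.3 and 15.3 CPM in Stent/Flow++, and 28.8 and 35.8 CPM in native libraries. Only the Stent/Flow++ libraries all lay below the native ones, and the single highest and the single lowest value both came from Stent/Flow-. Group means were 43.4 ± 45.0 CPM in Stent/Flow-, 47.2 ± 18.6 CPM in Flow+, 30.5 ± 11.2 CPM in Flow++ and 15.8 ± 1.37 CPM in Stent/Flow++, against 32.3 ± 4.95 CPM in native libraries (SD, n as above).

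No difference of NOS3 from native passed the test. Its log2 fold change was 0.43 ± 0.64 in Stent/Flow- (edgeR adjusted p = 0.697), 0.55 ± 0.64 in Flow+ (adjusted p = 0.621), -0.08 ± 0.64 in Flow++ (adjusted p = 0.951) and -1.03 ± 0.58 in Stent/Flow++ (adjusted p = 0.220). In a fit of only the Stent/Flow++ and native libraries, the last value was -1.04 with an edgeR adjusted p of 0.0318, and it passed as well without Stent/Flow- replicate 1 (0.0397) or replicate 2 (0.0382). The Stent/Flow- value was -1.47 without replicate 1 and 1.22 without replicate 2, so its sign rests on 1 library. In Stent/Flow-, PECAM1 and the junction protein CDH5 were also higher in replicate 1 (513 and 211 CPM) than in replicate 2 (218 and 78.8 CPM), and the adipocyte genes summed to 2717 CPM in replicate 1 and 244.9 CPM in replicate 2. In Stent/Flow++, which had the lowest mean of NOS3 though without a call, 10 of the 18 endothelial genes were called lower than native. Of all genes, 13.9% were called lower there. Whether any of this sets the level of NOS3 was not tested.

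ASS1 (ENSSSCG00000005701, chromosome 1, 270531434 to 270586364) differed strongly between libraries of the same group. It had 2.37 and 1.70 CPM in Stent/Flow-, 6.85 and 8.28 CPM in Flow+, 0.967 and 9.65 CPM in Flow++, 1.22, 0.841 and 0.422 CPM in Stent/Flow++, and 11.6 and 38.2 CPM in native libraries. Every cultured library lay below both native ones, which themselves differed widely, and the Stent/Flow++ libraries held 17, 15 and 9 counts and Flow++ replicate 1 held 19. Group means were 2.04 ± 0.472 CPM in Stent/Flow-, 7.57 ± 1.01 CPM in Flow+, 5.31 ± 6.14 CPM in Flow++ and 0.828 ± 0.399 CPM in Stent/Flow++, against 24.9 ± 18.8 CPM in native libraries (SD, n as above).

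ASS1 fell to 3.32% of its native mean in Stent/Flow++ (log2 fold change -4.93 ± 0.85, edgeR adjusted p = 0.00247) and to 8.18% in Stent/Flow- (-3.60 ± 0.93, adjusted p = 0.0298). The Stent/Flow++ call held without any one library (edgeR adjusted p up to 0.0254). In Stent/Flow- it was lost without native replicate 2 (0.212), Stent/Flow- replicate 1 (0.112) or Stent/Flow- replicate 2 (0.0992). The unstented cultures gave -1.72 ± 0.85 in Flow+ (edgeR adjusted p = 0.210) and -2.23 ± 0.87 in Flow++ (adjusted p = 0.108), and without Flow++ replicate 2 the Flow++ value was -4.65 (adjusted p = 0.0176). The authors' deposited tables list ASS1 for both stented cultures, at -3.61 in Stent/Flow- and -4.95 in Stent/Flow++, and list NOS3 for none.

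The second question was whether these genes differed with flow. It was asked with the stent in place (Stent/Flow++ against Stent/Flow-) and without it (Flow++ against Flow+), and none of the 4 genes was called in either. The d suffixes above differ between Stent/Flow- and Stent/Flow++ replicate 3, without which the 4 genes were not called either (KLF2 0.12, KLF4 0.099, NOS3 -1.44 and ASS1 -0.998 on the log2 scale). Over all genes, 2.85% were called in the first comparison (1.18% higher and 1.67% lower) and 0.104% in the second. KLF2 averaged 79.7 CPM in Stent/Flow++ against 68.9 CPM in Stent/Flow-, a log2 fold change of 0.21 ± 0.45 (edgeR adjusted p = 0.851) with a 95% interval of -0.78 to 1.20. It averaged 88.0 CPM in Flow++ against 61.0 CPM in Flow+, a log2 fold change of 0.53 ± 0.49 (adjusted p = 0.795) with an interval of -0.55 to 1.61. Both intervals span 0 and reach above a log2 change of 1, and without Stent/Flow- replicate 1 the first value was 1.44, without replicate 2 -0.44.

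For KLF4 the log2 fold change was 0.13 ± 0.30 in Stent/Flow++ against Stent/Flow- (edgeR adjusted p = 0.866, interval -0.54 to 0.80) and -0.63 ± 0.33 in Flow++ against Flow+ (adjusted p = 0.659, interval -1.36 to 0.11). Both Flow++ libraries lay below both Flow+ libraries for KLF4, as did 22.9% of all genes. For NOS3 the value was -1.46 ± 0.58 in Stent/Flow++ against Stent/Flow- (edgeR adjusted p = 0.197). Its interval, -2.73 to -0.19, leaves out 0 but is not adjusted for the number of genes tested. This value hangs on the divided Stent/Flow- pair: it was 0.44 without replicate 1 and -2.24 without replicate 2. In Flow++ against Flow+ the NOS3 value was -0.63 ± 0.64 (edgeR adjusted p = 0.816). ASS1 gave -1.33 ± 0.84 in Stent/Flow++ against Stent/Flow- (edgeR adjusted p = 0.426), with all 3 flow libraries below both static ones as for 15.7% of genes, and -0.51 ± 0.84 in Flow++ against Flow+ (adjusted p = 0.895).

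A pair of further comparisons changes the stent or both conditions at once. In Flow+ against Stent/Flow-, KLF2, KLF4 and NOS3 gave log2 fold changes of -0.18 ± 0.49, 0.15 ± 0.33 and 0.12 ± 0.63 (edgeR adjusted p = 0.909, 0.879 and 0.955). ASS1 was higher in both Flow+ libraries than in both Stent/Flow- ones, as were 23% of genes, with 1.88 ± 0.88 (edgeR adjusted p = 0.453, interval -0.05 to 3.81). In Stent/Flow++ against Flow++, which compares stented with unstented vessels under the stronger flow, the values were -0.14 ± 0.44 for KLF2, 0.60 ± 0.31 for KLF4, -0.95 ± 0.58 for NOS3 and -2.70 ± 0.82 for ASS1 (edgeR adjusted p = 1 for each). All 3 NOS3 values of Stent/Flow++ lay below both of Flow++, as for 6.97% of genes, and the unadjusted p of ASS1 was 0.00720. edgeR called 0 genes in either comparison, with 1732 and 467 genes at an unadjusted p under 0.05, while DESeq2 called 354 and 6 and limma-voom 0 and 0.

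By group mean, KLF2 was ordered Flow+, Stent/Flow-, Stent/Flow++, Flow++ and native, and only the step to native separated neighbouring groups. KLF4 was ordered Flow++, Stent/Flow-, Stent/Flow++, Flow+ and native, again with overlap at every step but the last. For NOS3 the order was Stent/Flow++, Flow++, native, Stent/Flow- and Flow+, and only the first step was free of overlap. ASS1 ran from Stent/Flow++ through Stent/Flow-, Flow++ and Flow+ to native, with no overlap at the first and the last step.

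Because endothelial genes differed between libraries, each gene was also set against the mean log2 CPM of the 18 endothelial genes of its own library. On this log2 scale KLF2 stood at 0.22 ± 0.32 in Stent/Flow- (0.44 and -0.01), 0.50 ± 0.20 in Flow+ (0.36 and 0.64), 1.02 ± 0.29 in Flow++ (0.81 and 1.22), 1.63 ± 0.36 in Stent/Flow++ (1.74, 1.23 and 1.92) and 2.42 ± 0.06 in native libraries (SD, n as above). By group mean, relative KLF2 was therefore lowest in the static, stented vessels and highest in the native artery, with low flow below the stronger flow, but the Stent/Flow- and Flow+ libraries overlapped. Both stronger-flow groups lay above Flow+ and Stent/Flow- in every library. The endothelial mean that was subtracted was itself 4.58, 4.89 and 4.57 in Stent/Flow++, against 5.15 and 5.62 in Flow+. For Stent/Flow++ against Flow+ and for Flow++ against Stent/Flow-, the share of all genes that separate this way was not computed.

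These steps stand beside a shift of all genes. Relative KLF2 was 1.41 higher in Stent/Flow++ than in Stent/Flow- (two-sided exact permutation test, p = 0.1, the smallest that 3 against 2 libraries can give), but the median of all genes shifted by 0.92 on the same scale, and 36.4% of genes had all Stent/Flow++ libraries above both Stent/Flow- ones. In Flow++ against Flow+ relative KLF2 was 0.52 higher (exact permutation p = 0.333, the smallest that 2 against 2 can give), where the median gene shifted by -0.06 and 15.4% of genes separated upward. With the median of the endothelial genes or with PECAM1 and CDH5 alone in place of the mean, this difference was 0.89 and 0.80. A further denominator left out endothelial genes held to change with flow, and its value is not reported here. Neither are the values of these other denominators in Stent/Flow++ against Stent/Flow-. Neither design can reach a p under 0.05.

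**Figure D3:**
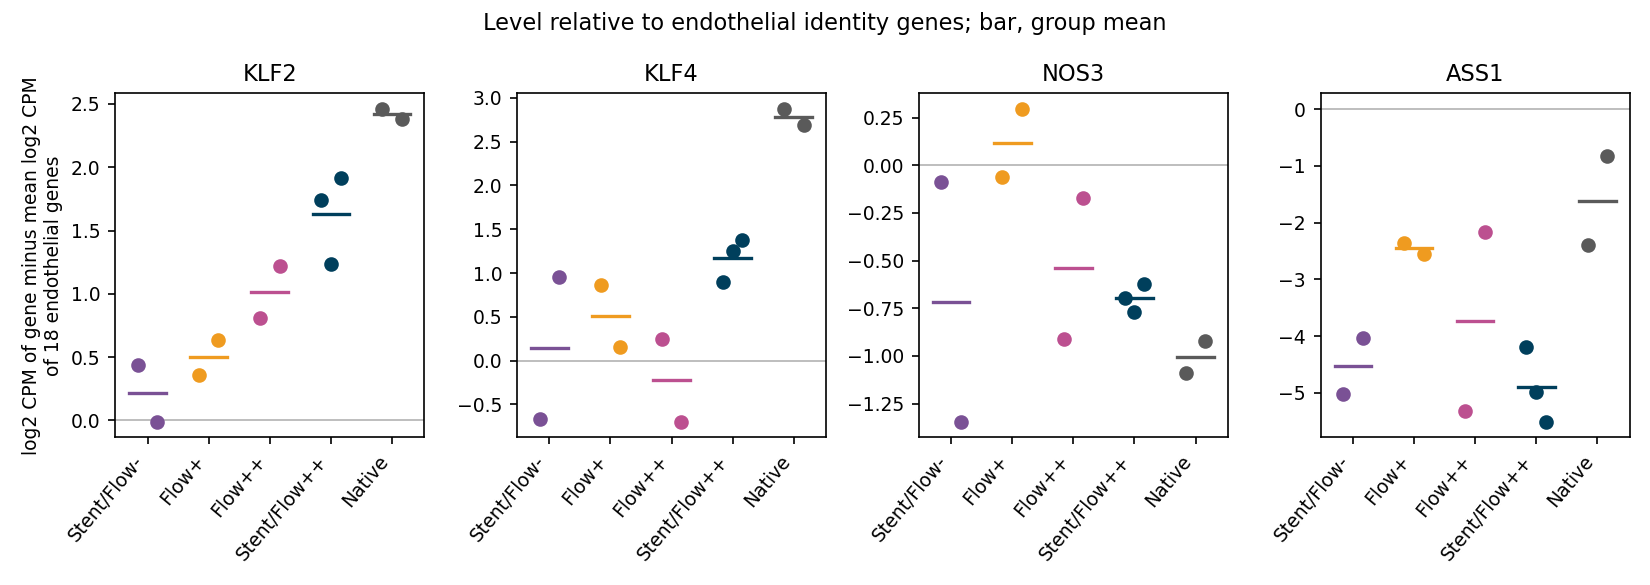
Log2 CPM of each gene minus the mean log2 CPM of 18 endothelial genes in the same library, with a point per library and a bar at the group mean. The group mean of relative KLF2 runs upward from Stent/Flow- through Flow+, Flow++ and Stent/Flow++ to native arteries. Relative KLF4, NOS3 and ASS1 do not share this order. Flow++ and Stent/Flow++ had the same flow label, and in CPM the KLF2 means were 88.0 in Flow++ and 79.7 in Stent/Flow++. How all genes shift between those groups on the relative scale was not computed.

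The other 3 genes had other orders. Relative KLF4 was 0.14 ± 1.14 in Stent/Flow-, 0.51 ± 0.50 in Flow+, -0.22 ± 0.67 in Flow++ and 1.17 ± 0.25 in Stent/Flow++, against 2.78 ± 0.13 in native libraries. Relative NOS3 was highest in Flow+ (0.12 ± 0.25) and lay at -0.72 ± 0.89 in Stent/Flow-, -0.54 ± 0.52 in Flow++ and -0.69 ± 0.07 in Stent/Flow++, against -1.01 ± 0.12 in native libraries. Relative to the endothelial genes, NOS3 thus had no lower mean in any culture than in the native artery. Relative ASS1 was -4.53 ± 0.69 in Stent/Flow-, -2.46 ± 0.14 in Flow+, -3.74 ± 2.24 in Flow++ and -4.89 ± 0.67 in Stent/Flow++, against -1.61 ± 1.11 in native libraries (SD, n as above).

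The 20 genes upstream of KLF2 and KLF4 were flow sensors, the kinase cascade and the MEF2 factors that bind the KLF2 promoter. The share of them called in either direction was close to or below that of all genes in every culture. Against native, 0 were higher and 2, 2, 1 and 5 were lower in Stent/Flow-, Flow+, Flow++ and Stent/Flow++. Their median log2 fold change was -0.23, -0.02, -0.31 and -0.29. Of all genes, 12.7%, 12.4%, 14.8% and 24.3% were called in the same order, and 7.19%, 7.38%, 8.86% and 13.9% were called lower. The kinase MAPK7, at 96.1 and 40.0 CPM in Stent/Flow- and 108.03 and 62.4 CPM in native libraries, was not called in any comparison, nor were its activator MAP2K5 and the factor MEF2A. MEF2D fell in all 4 cultures, by 1.14 ± 0.29 in Stent/Flow-, 1.01 ± 0.28 in Flow+, 1.18 ± 0.29 in Flow++ and 1.14 ± 0.25 in Stent/Flow++ (edgeR adjusted p = 0.0273, 0.0416, 0.0198 and 0.00889), although each call was lost without at least 1 native replicate. Of the calls in this list 0 of 2 in Stent/Flow-, 0 of 2 in Flow+, 0 of 1 in Flow++ and 1 of 5 in Stent/Flow++ held without any one library. MEF2C fell by 2.04 ± 0.51 in Stent/Flow- and by 1.72 ± 0.44 in Stent/Flow++ (adjusted p = 0.0263 and 0.0174). The VEGF receptor KDR, part of the junctional flow sensor, fell by 2.75 ± 0.51 in Stent/Flow++ and by 2.48 ± 0.58 in Flow+ (adjusted p = 0.00346 and 0.0200).

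Genes known to be raised by laminar flow were called in both directions in 3 of the 4 cultures. Of 17 measured, 0 were higher and 3 lower in Stent/Flow-, 4 higher and 3 lower in Flow+, 4 higher and 6 lower in Flow++, and 5 higher and 6 lower in Stent/Flow++, with medians of -0.14, -0.38, -0.84 and -1.06. Beside them, 12.7%, 12.4%, 14.8% and 24.3% of all genes were called in either direction. In Stent/Flow-, all 3 calls of 17 were lower, where 7.19% of all genes were called lower. The water channel AQP1 had 151 and 103 CPM in Stent/Flow-, 157 and 144 CPM in Flow+, 43.2 and 123 CPM in Flow++ and 76.9, 87.7 and 83.6 CPM in Stent/Flow++, against 393 and 513 CPM in native libraries. It fell in all 4 cultures (-1.84 ± 0.43, -1.59 ± 0.42, -2.44 ± 0.44 and -2.45 ± 0.38, edgeR adjusted p = 0.0197, 0.0331, 0.00507 and 0.00130), as did the BMP inhibitor SMAD6 (-1.99 ± 0.49, -1.88 ± 0.49, -2.52 ± 0.50 and -3.04 ± 0.44). CYP1B1, a cytochrome P450 under control of the aryl hydrocarbon receptor, had 957 and 692 CPM in Flow+, 877 and 540 CPM in Flow++ and 1115, 1199 and 322 CPM in Stent/Flow++, against 87.8 and 109.7 CPM in native libraries. It rose in those 3 cultures (3.06 ± 0.62, 2.84 ± 0.62 and 3.15 ± 0.60, adjusted p = 0.0110, 0.0122 and 0.00410), while Stent/Flow- had 174 and 407 CPM and was not called. The list thus held calls in both directions in Flow+, Flow++ and Stent/Flow++ and calls only lower in Stent/Flow-, and its count depends on single libraries: without one library the number called was 0 to 5 in Stent/Flow-, 0 to 8 in Flow+, 2 to 11 in Flow++ and 4 to 12 in Stent/Flow++.

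Genes that laminar flow and KLF2 are known to hold down were also called in both directions. Of 18 measured, 3 were higher and 2 lower in Stent/Flow-, 4 and 1 in Flow+, 5 and 1 in Flow++, and 5 and 3 in Stent/Flow++, with medians of -0.45, 0.06, 0.39 and 0.25. Here too the share of all genes called was 12.7%, 12.4%, 14.8% and 24.3%. The monocyte chemokine CCL2 rose in all 4 cultures (1.44 ± 0.42, 1.81 ± 0.42, 2.23 ± 0.43 and 3.10 ± 0.43, edgeR adjusted p = 0.0452, 0.0200, 0.00725 and 0.000745). The vasoconstrictor endothelin EDN1, a textbook target that falls with KLF2 expression, had 4.98 and 13.8 CPM in Stent/Flow-, 11.5 and 21.0 CPM in Flow+, 17.3 and 53.3 CPM in Flow++ and 37.5, 5.33 and 6.46 CPM in Stent/Flow++, against 40.3 and 52.6 CPM in native libraries. Its 3 Stent/Flow++ values spanned most of the range of the cultures. With each library left out in turn, 1 of 5 calls of this list held in Stent/Flow-, 0 of 5 in Flow+, 1 of 6 in Flow++ and 4 of 8 in Stent/Flow++. Neither EDN1 nor the leukocyte adhesion molecule VCAM1 was called in any comparison.

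This list also held calls when stented vessels with and without flow were compared. Of its 18 genes 4 rose and 0 fell in Stent/Flow++ against Stent/Flow-, with a median of 0.97 beside 0.01 over all genes. Among all genes, 1.18% were called higher and 1.67% lower in this comparison. The matricellular gene CCN2 had 586, 459 and 629 CPM in Stent/Flow++ and 50.4 and 93.2 CPM in Stent/Flow- (2.96 ± 0.41, edgeR adjusted p = 0.00704). CCN1 rose by 2.84 ± 0.53 (adjusted p = 0.0206), the neutrophil chemokine CXCL8 by 4.76 ± 0.90 (0.0231) and the endothelial proteoglycan ESM1 by 3.16 ± 0.55 (0.0170). Each of these calls was lost without Stent/Flow- replicate 1, and the number called without one library was 0 to 7. Among the genes raised by laminar flow, 2 were lower in the same comparison and 0 higher, the connexin GJA4 and the lipid phosphatase PLPP3 (-3.06 ± 0.63 and -1.56 ± 0.24, edgeR adjusted p = 0.0312 and 0.0112), of which only PLPP3 was called without any one library. In Flow++ against Flow+, edgeR called 0 genes of these lists.

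In the nitric oxide and arginine pathway, several enzymes around NOS3 and ASS1 were called. Of 19 measured genes, 2 were higher and 3 lower in Stent/Flow-, 3 and 2 in Flow+, 3 and 3 in Flow++, and 4 and 4 in Stent/Flow++. The share of all genes called in either direction was 12.7%, 12.4%, 14.8% and 24.3% in the same order. DDAH1, which breaks down the NOS inhibitor asymmetric dimethylarginine, had 30.6 and 38.6 CPM in Stent/Flow-, 103 and 81.2 CPM in Flow+, 208 and 76.1 CPM in Flow++ and 155, 118 and 203 CPM in Stent/Flow++, against 10.8 and 13.3 CPM in native libraries. It rose in all 4 cultures (1.52 ± 0.44, 2.93 ± 0.46, 3.56 ± 0.47 and 3.71 ± 0.46, edgeR adjusted p = 0.0455, 0.00331, 0.00130 and 0.000429) and was higher in Stent/Flow++ than in Stent/Flow- (2.20 ± 0.42, adjusted p = 0.0248), though not without native replicate 1 or Stent/Flow- replicate 1.

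Its paralog DDAH2 went the other way, with 34.8 and 20.4 CPM in Stent/Flow-, 16.2 and 20.5 CPM in Flow+, 14.2 and 28.9 CPM in Flow++ and 12.8, 22.2 and 33.0 CPM in Stent/Flow++, against 114 and 130.4 CPM in native libraries. It fell by 2.14 ± 0.47, 2.73 ± 0.48, 2.50 ± 0.48 and 2.43 ± 0.42 on the log2 scale (edgeR adjusted p = 0.0159, 0.00617, 0.00725 and 0.00232). The arginases, which use the same arginine as NOS3, were higher: ARG2 rose by 1.78 ± 0.47 in Flow+, 2.65 ± 0.48 in Flow++ and 2.77 ± 0.46 in Stent/Flow++ (adjusted p = 0.0314, 0.00534 and 0.00191). ARG1 had 1 count over both native libraries, and its ratio to native was 176 in Stent/Flow- (95% counting interval 31.2 to 6970; 209 counts in replicate 1 and 15 in replicate 2, or 8.26 and 0.912 CPM), 725 in Flow+ (130 to 28673), 559 in Flow++ (99.96 to 22107) and 636 in Stent/Flow++ (114 to 25154). ASL, which finishes the arginine synthesis that ASS1 starts, was not called, its lowest edgeR adjusted p being 0.0520 in Flow+ (-1.15 ± 0.35). Of the calls in this pathway, 0 of 5 in Stent/Flow-, 1 of 5 in Flow+, 2 of 6 in Flow++ and 5 of 8 in Stent/Flow++ held without any one library.

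In place of thrombomodulin, 12 measured genes of the anticoagulant and fibrinolytic endothelial surface were read. Against native, 1 was higher and 2 lower in Stent/Flow-, 2 and 1 in Flow+, 5 and 1 in Flow++, and 4 and 2 in Stent/Flow++, where 12.7%, 12.4%, 14.8% and 24.3% of all genes were called, and 0 of 3, 0 of 3, 1 of 6 and 3 of 6 of these calls held without any one library. The protein C receptor PROCR, the partner of thrombomodulin, had 22.4 and 16.8 CPM in Stent/Flow-, 24.7 and 34.5 CPM in Flow+, 24.9 and 31.4 CPM in Flow++ and 24.7, 31.2 and 11.9 CPM in Stent/Flow++, against 12.6 and 14.2 CPM in native libraries, and was not called. The prostacyclin synthase PTGIS fell in all 4 cultures (-1.33 ± 0.28, -1.22 ± 0.28, -1.06 ± 0.28 and -0.99 ± 0.25, edgeR adjusted p = 0.0139, 0.0198, 0.0295 and 0.0164). Between the stented groups, Stent/Flow++ against Stent/Flow-, 2.85% of all genes were called. There the ectonucleotidase NT5E rose by 3.73 ± 0.60, the protease inhibitor TFPI2 by 2.96 ± 0.48 and the plasminogen activator PLAT by 1.56 ± 0.33, while the thrombin receptor F2R fell by 1.51 ± 0.27 (edgeR adjusted p = 0.0123, 0.0132, 0.0330 and 0.0188). None of these 4 calls held without every one of the libraries in turn.

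Of 12 other measured members of the KLF family, edgeR called 0 in Flow+, Flow++ or Stent/Flow++ against native, and leaving out a library gave at most 2. Of all genes, 12.4%, 14.8% and 24.3% were called in those groups and 12.7% in Stent/Flow-. In Stent/Flow- KLF10 and KLF11 fell by 1.36 ± 0.37 and 1.80 ± 0.42 (edgeR adjusted p = 0.0362 and 0.0196), calls that were each lost without native replicate 1 or 2. KLF15, a glucocorticoid-induced family member, rose there, with 57.3 and 53.3 CPM against 16.1 and 12.1 CPM in native libraries (1.97 ± 0.34, adjusted p = 0.00507), and without native replicate 2 this was not called. It was lower in Stent/Flow++, at 12.2, 12.8 and 16.3 CPM, than in Stent/Flow- (-2.01 ± 0.30, adjusted p = 0.00937), and this call held without any one library.

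Immediate early genes, whose transcripts appear quickly after a stimulus and without new protein synthesis, fell along with KLF2 and KLF4. Of 18 measured, 13 were lower in Stent/Flow-, 15 in Flow+, 13 in Flow++ and 15 in Stent/Flow++, against 0, 0, 0 and 1 higher, and the median log2 fold changes were -3.30, -3.44, -3.17 and -3.30. Among all genes, 7.19%, 7.38%, 8.86% and 13.9% were called lower. The transcription factor EGR1 had 52.0 and 65.5 CPM in Stent/Flow-, 70.7 and 125 CPM in Flow+, 387 and 273 CPM in Flow++ and 259, 81.0 and 112 CPM in Stent/Flow++, against 7611 and 8459 CPM in native libraries. Native vessels were thus the ones with high immediate early transcripts, and all cultured libraries were low. Of these calls 12 of 13, 11 of 15, 8 of 13 and 13 of 16 held without any one library. Their part in the fall of KLF2 and KLF4 was not tested.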

How the data were processed

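Total RNA of 11 porcine coronary artery samples was sequenced, and the authors deposited gene counts per library in 2 tables with identical native columns, joined here by gene. Trimmomatic, FastQC, DESeq2 and the Sscrofa11.1 build are named in the submitters' processing notes; aligner, annotation and strand setting are not given in the sources at hand. The authors also deposited, for each culture, a table of changed genes with log2 fold changes relative to native, which is quoted and not tested. Groups were taken from the labels.

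Counts were fitted in R 4.3.3 with edgeR 4.0.16 (filterByExpr, TMM scaling, quasi-likelihood F-test, 1 joint fit of 5 groups, 8 comparisons, Benjamini-Hochberg threshold 0.05). For log2 CPM, 2 was added as prior count. The procedure was tested on simulated data. Alternatives were RLE size factors, a replicate block, dropping the filter, a minimum of 10 counts per library, only the groups compared, one count table, limma-voom (limma 3.58.1), DESeq2 1.42.0 and leaving out each library, and for relative levels other endothelial denominators, chosen after seeing the data.

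Genes were matched by symbol (14857 of 25880 identifiers have one) and coordinates by symbol to RefSeq. Named genes were the 5 listed, up to 4 called members per list and comparison with the largest change, and fixed markers including MAPK7, MAP2K5, MEF2 factors, PECAM1, CDH5, EDN1 and VCAM1. ASL, PROCR and MARCO, and AQP1, ARG2, CCL2, DDAH1, DDAH2 and PTGIS in comparisons where they were not among the first 4, were added after their values were seen. Some genes that the rule names are not reported here. The genes and lists were chosen with earlier results of these data known. Intervals on single ratios cover counting error only.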

Additional observations from a re-analysis of the deposited data

How the results depend on the processing

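Across the alternatives other than leaving out a library, 240 log2 fold changes of KLF2, KLF4, NOS3 and ASS1 were recomputed, and 233 kept their direction and side of the threshold. Passing only in an alternative were ASS1 in Flow++ against native without the filter (-2.22), with limma-voom (-2.79) and with DESeq2 (-2.27), and, in fits of only the groups compared, ASS1 in Flow+ (-1.71) and NOS3 in Stent/Flow++ (-1.04). With limma-voom, NOS3 in Stent/Flow- against native turned to -0.049 and KLF2 in Flow+ against Stent/Flow- to 0.048. Relative KLF2 in Flow++ minus Flow+ was 0.89 with the median and 0.80 with PECAM1 and CDH5.

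Gene totals moved more. In Stent/Flow++ against Stent/Flow-, 438 genes became 1003 without the filter, 32 with only the groups compared, 160 with one count table and 1376 with DESeq2. In Flow++ against Flow+, 16 became 54 without the filter, 2 at 10 counts in every library, 46 with one table and 105 with DESeq2. Flow+ against Stent/Flow- had 144 without the filter and 354 with DESeq2, and Stent/Flow++ against Flow++ 6 with DESeq2. Against native, Stent/Flow- gave 1232 (one table) and 3089 (DESeq2), Flow++ 3854 (one table), and Flow+ 4884 (groups compared), 3363 (one table) and 2903 (DESeq2). The samples share only numbers: deviations of same-numbered samples correlated at -0.33 to 0.18, with mirrored values in groups of 2. The number 25 in the names of native replicate 2 and Stent/Flow++ replicate 1 was not used for pairing. A replicate block gave 2489 genes in Stent/Flow++ against native, 185 in Stent/Flow++ against Stent/Flow- and 4 in Flow+ against Stent/Flow-, and changed no call of the 4 genes.

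Leaving out each library in turn, KLF4 kept its call in all 4 comparisons with native, and KLF2 and ASS1 theirs in Stent/Flow++. Against native, KLF2 ranged over -3.54 to -1.67 in Stent/Flow-, -2.92 to -2.17 in Flow+ and -2.17 to -1.76 in Flow++, ASS1 over -4.22 to -2.45 in Stent/Flow- and -4.65 to -1.09 in Flow++, and NOS3 over -1.47 to 1.22 in Stent/Flow-, -0.47 to 0.26 in Flow++ and -1.19 to -0.83 in Stent/Flow++. In Stent/Flow++ against Stent/Flow-, KLF2 ranged over -0.44 to 1.44, KLF4 over -0.020 to 0.30 and NOS3 over -2.24 to 0.44, and relative to the endothelial genes KLF4 over 0.22 to 1.84 and NOS3 over -0.61 to 0.65. In Flow+ against Stent/Flow-, KLF2 ranged over -0.82 to 1.05 and NOS3 over -0.66 to 2.03. ASS1 in Flow++ against Flow+ ranged over -2.94 to 0.35, and KLF2 in Stent/Flow++ against Flow++ over -0.35 to 0.075. Genes called against native ranged over 514 to 2474 in Stent/Flow-, 361 to 2307 in Flow+, 752 to 2800 in Flow++ and 1542 to 4128 in Stent/Flow++, and between cultures over 95 to 784 in Stent/Flow++ against Stent/Flow-, 5 to 20 in Flow++ against Flow+, 0 to 161 in Flow+ against Stent/Flow- and 0 to 1 in Stent/Flow++ against Flow++. Each group has only 2 or 3 libraries, and ASS1 rested on 9 to 17 counts per library in Stent/Flow++.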

Other observations

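The genes whose log2 CPM ran most like each of the 4 were listed as a description, over 8402 genes with a symbol and a mean log2 CPM of at least 3. Over all 11 libraries, where the native pair shares the high end, KLF2 ran closest to HSD17B8 (Pearson r = 0.958) and OTUD5 (0.954), and KLF4 to IRF2BP2 (0.984) and RASSF2 (0.977). NOS3 ran closest to LMO2 (0.960) and the endothelial receptor TIE1 (0.893), and TEK was among the genes closest to ASS1 (0.922). Over the 9 cultured libraries NOS3 was again closest to LMO2 (0.966), followed by RAMP2 (0.949), CD34 (0.927), TIE1 and SEMA3F (both 0.923), while KLF2 was closest to ADAMTS7 (0.985), KLF4 to QTRT2 (0.975) and ASS1 to HRH1 (0.935). All libraries of a group share their treatment, so these values count fewer independent points than libraries.

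Over the 9 cultured libraries the 4 genes did not run together in a way that passed a test. KLF2 and KLF4 gave a Pearson r of -0.44 (exact permutation p = 0.219, 0.340 adjusted over 6 pairs) and a Spearman rho of -0.65 (p = 0.0666, 0.257 adjusted), and r was -0.56 without the 2 libraries farthest from the median of KLF2. NOS3 and ASS1 gave r = 0.68 (exact permutation p = 0.0507, 0.304 adjusted) and rho = 0.62 (p = 0.0857, 0.257 adjusted), and r was 0.78 without the 2 libraries farthest from the median of NOS3. The other 4 pairs had adjusted p-values of at least 0.340 for r. The permutations moved all 9 libraries freely, although libraries of a group share their treatment. These p-values therefore mix differences between groups with scatter within them.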
